A study of Homo sapiens with 9 samples.

Results

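The genes described here encode the proteasome, chosen from the expression table by symbol: every PSMA, PSMB, PSMC, PSMD, PSME, PSMF or PSMG gene with a number, together with the assembly factor POMP and the ubiquitin receptor ADRM1. They were 49 of 24204 gene symbols. RNA sequencing was done in HepG2, a human hepatocellular carcinoma line, after 48 h of infection with a lentivirus and 48 h of puromycin. The virus encoded a control hairpin in the group named shCtrl and a TRIB3 hairpin in shTRIB3-1 and, with another target sequence, in shTRIB3-2, with 3 libraries a group and 9 in all. All groups therefore carry a lentiviral hairpin and the resistance marker, each is a selected population of infected cells of 1 line, and nothing states that the 3 libraries of a group came from separate cultures, so that p-values measure the spread between libraries, which may be technical. The labels name high-glucose DMEM with 10% serum for growth, whereas the methods of the study speak of glutamine-deprived cells for sequencing, so the medium at harvest is not given here. The comparison asks how the mRNAs of core, regulatory and inducible proteasome subunits stood after depletion of TRIB3, a pseudokinase that acts as a scaffold.

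The proteasome is the protease that degrades ubiquitin-tagged proteins. Its 20S core is a barrel of stacked rings, with alpha subunits (PSMA) forming the gates and beta subunits (PSMB) forming the chamber, in which PSMB6, PSMB7 and PSMB5 carry the caspase-like, trypsin-like and chymotrypsin-like sites. In cells exposed to interferon these are replaced by PSMB9, PSMB10 and PSMB8, giving the immunoproteasome, whose peptides are favoured for display on MHC class I. The 19S cap binds ubiquitin chains and unfolds substrates through a ring of ATPases (PSMC) and a set of non-ATPase subunits (PSMD and ADRM1), the PA28 activator (PSME1 with PSME2) opens the core without ubiquitin and is also induced by interferon, and dedicated chaperones (POMP, PSMG, PSMD5, PSMD9, PSMD10) assemble the particles and leave them.

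Depths were even, with 34206726 to 36311029 fragments per library, and the HepG2 markers fixed for the check (10 of 10 with a row) lay between 7.64 and 6715 FPKM (fragments normalised to gene length and to the library total) in every library. They summed to 8392 to 9045 FPKM in shCtrl, 8609 to 9048 in shTRIB3-1 and 10824 to 11138 in shTRIB3-2. The 10 markers of leukocytes, fibroblasts and endothelium summed to 3.10 to 3.51 FPKM in shCtrl, 2.65 to 2.91 in shTRIB3-1 and 2.88 to 3.01 in shTRIB3-2, the highest single value being 2.30. The leukocyte gene PTPRC was at 0 in shCtrl and averaged 0.00147 and 0.00149 FPKM in the knockdowns. Of these 10 markers only 1 was high enough for the test described below. It was higher with both hairpins, at a log2 fold change of 0.29 and 0.32. TRIB3 itself read 67.9, 65.8 and 66.6 FPKM in the 3 shCtrl libraries, 34.1, 32.7 and 34.04 in shTRIB3-1 and 20.6, 20.7 and 20.4 in shTRIB3-2, leaving 50.3% and 30.8% of the control level. In bulk RNA a smaller number of cells with a transcript and less of it per cell cannot be told apart.

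Differences were tested with limma on log2(FPKM + 0.1) over the 11265 genes that reached 1 FPKM in at least 3 libraries, with Benjamini-Hochberg adjustment over all of them, and a gene is said to have risen or fallen where its adjusted p is under 0.05. Fold changes are on this log2(FPKM + 0.1) scale, which understates changes of low genes, and an error after a fold change is its standard error. Of the 49 genes 48 were tested. The exception was PSMB11, the beta subunit of thymus epithelium, which held 0 to 2 fragments per library and at most 0.0316 FPKM. Both hairpins are compared with the same 3 shCtrl libraries, so their results are not independent of each other.

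After knockdown the proteasome did not move as 1 block. In shTRIB3-1 14 of the 48 genes rose and 21 fell, beside 32.9% and 41.5% of all tested genes, and 13 did not pass the test. In shTRIB3-2 10 rose and 25 fell, beside 35.4% and 40.5% of all genes, and 13 again did not pass. These shares are near the background in shTRIB3-1 and tilted towards lower values in shTRIB3-2. The median log2 fold change of the 48 genes was -0.07 and -0.11 with the 2 hairpins, against -0.06 and -0.03 over all tested genes, and the median absolute change was 0.19 and 0.18 against 0.32 and 0.34. With each library centred on its median, the split became 18 higher and 13 lower in shTRIB3-1 and 11 higher and 19 lower in shTRIB3-2. The number of lower genes, and so the tilt in shTRIB3-2, therefore depended on the scaling. Shares of all tested genes after centring are not given here.

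With the hairpins side by side, 10 genes rose in both and 19 fell in both. PSMC4 rose in shTRIB3-1 and fell in shTRIB3-2, 3 genes rose and 2 fell in shTRIB3-1 without passing in shTRIB3-2, 5 fell in shTRIB3-2 alone by this threshold, and 8 passed in neither. The 3 libraries of a knockdown lay wholly to one side of the 3 shCtrl libraries for 38 of the 48 genes (shTRIB3-1) and 35 (shTRIB3-2), beside 77.2% and 77.4% of all tested genes. A change past a log2 value of 1 was met by PSMB9 alone in either hairpin, beside 11.5% and 12.3% of all genes.

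Several calls of changes below about 0.2 on the log2 scale depended on the scaling. Centring on the library median ended those of PSMA2, PSMA6, PSMB3, PSMB6, PSMC3, PSMD3, PSMD5 and PSMG3 in shTRIB3-1 and of PSMA2, PSMA5, PSMB6, PSMD1, PSMF1 and PSMG3 in shTRIB3-2. Quantile normalization ended those of PSMC3, PSMD5 and PSMG3 in shTRIB3-1 and of PSMD1 and PSMG3 in shTRIB3-2, rescaling to TPM those of PSMA1 and PSMD14 in shTRIB3-1 and of PSMD13 in shTRIB3-2, and voom on recovered fragments those of PSMC3 in shTRIB3-1 and of PSMG3 in both. Without a filter on low values PSMA2, PSMD14 and PSMG3 in shTRIB3-1 and PSMD1, PSMD13 and PSMG3 in shTRIB3-2 no longer passed. In the other direction, centring added ADRM1, PSMD4, PSMD11 and PSME3 as higher in shTRIB3-1 and PSMD6 in shTRIB3-2. TPM added PSMB5, PSMC2, PSMC5, PSMD7 and PSMF1 as lower in shTRIB3-1 and PSMD4 in shTRIB3-2. Quantile normalization added PSMB5 and PSMC5 as lower in shTRIB3-1 and PSMC5 and PSMD4 in shTRIB3-2. Voom on recovered fragments added PSMB5 as lower in shTRIB3-1.

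**Figure D1:**
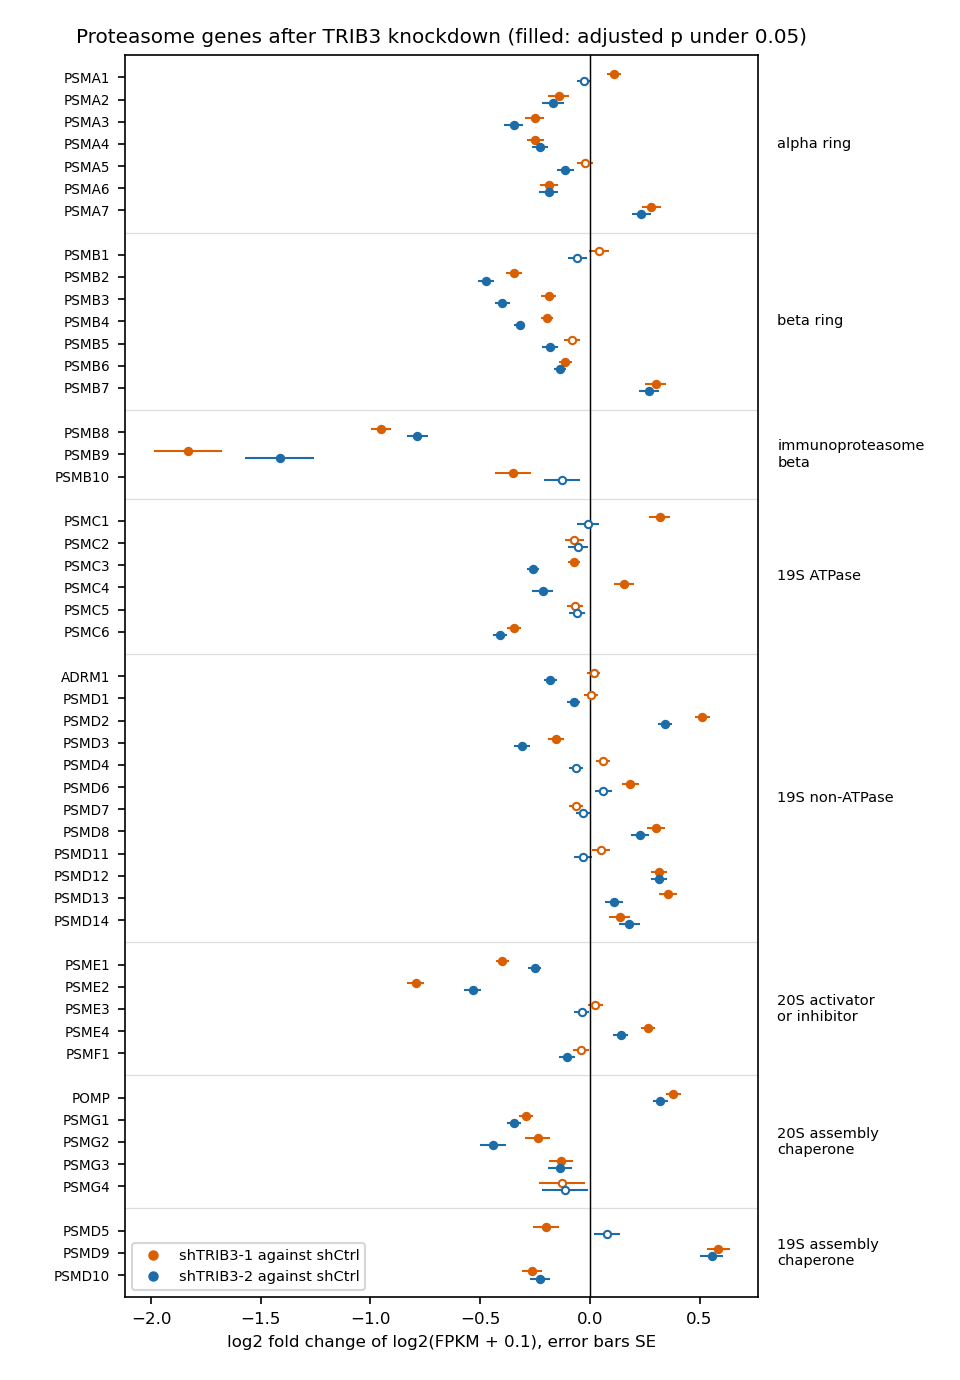
Log2 fold change of log2(FPKM + 0.1) against shCtrl for the 48 tested proteasome genes (horizontal axis), grouped by role, with shTRIB3-1 in orange and shTRIB3-2 in blue, bars showing the standard error and filled points an adjusted p under 0.05. PSMB9, PSMB8 and PSME2 lie farthest to the left at -1.83, -0.95 and -0.79 in shTRIB3-1, and PSMD9 farthest to the right at 0.59.

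The genes with the deepest falls were those of the interferon-inducible forms: the catalytic subunits PSMB9 and PSMB8 and the activator subunit PSME2. PSMB9 fell to 25.98% and 35.2% of the control level, PSMB8 to 51.4% and 57.8%, and PSME2 to 57.6% and 69.1%. Promoter windows of the inducible genes are printed here because 4 of these 5 genes, all but PSMB10, fell with both hairpins, with POMP added as an assembly factor that interferon is also known to induce. They come from RefSeq (GRCh38.p14), read 5′ to 3′ on the gene's strand from 150 bases before the start site to 20 bases from it on. Capitals mark matches on either strand to the interferon-stimulated response element core GAAANNGAA (TTCNNTTTC reversed), to the gamma-activated site TTCNNNGAA, or to the antioxidant response element core TGACNNNGC (GCNNNGTCA reversed).
PSMB9 (chr6:32854042-32854211, plus strand): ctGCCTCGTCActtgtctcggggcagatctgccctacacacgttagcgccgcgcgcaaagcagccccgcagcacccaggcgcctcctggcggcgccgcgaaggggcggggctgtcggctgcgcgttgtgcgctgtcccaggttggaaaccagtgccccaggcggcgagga
PSMB8 (chr6:32844028-32844197, minus strand): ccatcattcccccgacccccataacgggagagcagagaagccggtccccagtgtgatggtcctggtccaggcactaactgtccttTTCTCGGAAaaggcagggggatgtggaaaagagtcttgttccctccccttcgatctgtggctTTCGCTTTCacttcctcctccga
PSMB10 (chr16:67936831-67937000, minus strand): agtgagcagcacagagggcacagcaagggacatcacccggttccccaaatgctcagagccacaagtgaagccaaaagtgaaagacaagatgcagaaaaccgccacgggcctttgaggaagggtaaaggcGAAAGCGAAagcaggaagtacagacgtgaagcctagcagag
PSME1 (chr14:24136044-24136213, plus strand): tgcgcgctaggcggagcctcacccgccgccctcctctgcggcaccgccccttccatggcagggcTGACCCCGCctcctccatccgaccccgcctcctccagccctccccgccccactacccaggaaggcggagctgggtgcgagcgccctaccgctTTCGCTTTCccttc
PSME2 (chr14:24146591-24146760, minus strand): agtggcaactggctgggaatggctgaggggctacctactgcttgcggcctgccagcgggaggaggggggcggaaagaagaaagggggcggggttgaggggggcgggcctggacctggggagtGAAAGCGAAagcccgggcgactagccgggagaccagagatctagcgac
POMP (chr13:28658980-28659149, plus strand): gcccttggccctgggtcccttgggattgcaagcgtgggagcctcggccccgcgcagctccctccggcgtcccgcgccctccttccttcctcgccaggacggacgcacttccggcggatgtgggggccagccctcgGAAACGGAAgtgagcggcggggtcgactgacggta

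The response element core stood in the windows of PSMB8, PSMB10, PSME1, PSME2 and POMP and not in that of PSMB9, where the capitals mark an antioxidant core. This says nothing of sequence farther from the PSMB9 start. PSMB8 held a gamma-activated match as well, 65 bases before its start. The table lists 2 start sites for PSMB8, and the other holds none of these motifs. Over the full windows of 250 bases before and 50 from the start site on, the 43 proteasome genes that matched the table have 53 promoters. The response element core was found in 9 of these (16.98%) and in 8.11% of all 35116 promoters, the gamma-activated motif in 7 (13.2%) and 7.66% of all, and the antioxidant core in 17 (32.1%) and 13.3% of all. The CCAAT box, a common promoter element, was in 22 (41.5%) and 34.6% of all. Promoters of 1 gene can overlap. A match is only a run of letters. Of the 6 printed genes, PSMB10 passed the test in 1 hairpin and POMP, with the same core in its window, rose.

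PSMB9, the inducible caspase-like position, lies at chr6:32844136-32859851, plus strand (GRCh38, GENCODE release 44), within the MHC region. This span begins before the RefSeq start site used for the promoter window, at 32854192. Of its exon bases 5.21% are shared with PSMB8-AS1 on the same strand and 4.16% lie opposite exons of PSMB8. PSMB9 read 3.30, 2.49 and 2.99 FPKM in shCtrl, 0.689, 0.603 and 0.989 in shTRIB3-1 and 1.01, 1.07 and 1.01 in shTRIB3-2. Every knockdown library was below every control library, and the shTRIB3-1 libraries were the lowest. The log2 fold change was -1.83 ± 0.16 (limma adjusted p = 4.45e-07) and -1.41 ± 0.16 (limma adjusted p = 4.22e-06). The counts behind these values are small, 92 to 120 fragments per shCtrl library, 21 to 35 per shTRIB3-1 library and 35 to 38 per shTRIB3-2 library. With a pseudocount of 1 the fold change in shTRIB3-2 was -0.95.

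Its neighbour PSMB8, the inducible chymotrypsin-like subunit, lies at chr6:32840717-32844679, minus strand. It read 16.5, 17.03 and 16.9 FPKM in shCtrl, 8.41, 8.40 and 9.12 in shTRIB3-1 and 9.99, 9.87 and 9.27 in shTRIB3-2, again without overlap between knockdown and control. This is a log2 fold change of -0.95 ± 0.05 (limma adjusted p = 2.81e-09) and -0.79 ± 0.05 (limma adjusted p = 1.36e-08). Of its exon bases 17.3% lie opposite exons of other genes, PSMB8-AS1 and PSMB9 among them, and how strand was treated in counting is not given in the sources used here.

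PSMB10, the inducible trypsin-like subunit, was the member of this trio that moved least. It read 8.09, 8.29 and 9.34 FPKM in shCtrl, 6.88, 7.05 and 6.18 in shTRIB3-1 and 8.83, 7.44 and 7.29 in shTRIB3-2. The shTRIB3-1 libraries were all below control, whereas the highest shTRIB3-2 library lay inside the control range. Its log2 fold change was -0.35 ± 0.08 (limma adjusted p = 0.00192) and -0.13 ± 0.08 (limma adjusted p = 0.173). Without shTRIB3-2 replicate 1 the latter became -0.21 (limma adjusted p = 0.0245). An unnamed gene on the same strand shares 39.4% of the exon bases of PSMB10, so reads there may not all have been counted for PSMB10.

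The genes of the PA28 activator pair are transcribed towards each other on chromosome 14, PSME1 at chr14:24136163-24138967, plus strand and PSME2 at chr14:24143362-24147570, minus strand. PSME2 read 125, 119 and 124 FPKM in shCtrl, 68.1, 72.8 and 70.6 in shTRIB3-1 and 85.8, 87.6 and 80.3 in shTRIB3-2. Its log2 fold change was -0.79 ± 0.04 (limma adjusted p = 2.59e-09) and -0.53 ± 0.04 (limma adjusted p = 8.33e-08), with all knockdown libraries below all controls. PSME1 fell less, from 122 to 127 FPKM in shCtrl to 92.7 to 95.98 and 103 to 107, a log2 fold change of -0.40 ± 0.03 and -0.25 ± 0.03 (limma adjusted p = 9.15e-08 and 5.60e-06). The PSME2 to PSME1 ratio of FPKM, whose proteins join in 1 ring, was 0.981 ± 0.0397 (SD, n = 3) in shCtrl, 0.746 ± 0.0192 in shTRIB3-1 and 0.807 ± 0.0329 in shTRIB3-2.

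The other regulators of the core gate did not fall with both hairpins. PSME3, the nuclear PA28 homologue, gave 0.02 ± 0.03 and -0.04 ± 0.03 and did not pass the test. PSME4, which encodes the large activator PA200, rose by 0.27 ± 0.03 and 0.14 ± 0.03 on the log2 scale (limma adjusted p = 1.63e-05 and 0.00236). PSMF1, the inhibitor PI31, gave -0.04 ± 0.04 in shTRIB3-1 without passing and fell in shTRIB3-2 at -0.11 ± 0.04 (limma adjusted p = 0.0198), a call lost without shCtrl replicate 1 or shTRIB3-2 replicate 1 (limma adjusted p = 0.0801 and 0.0695).

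**Figure D2:**
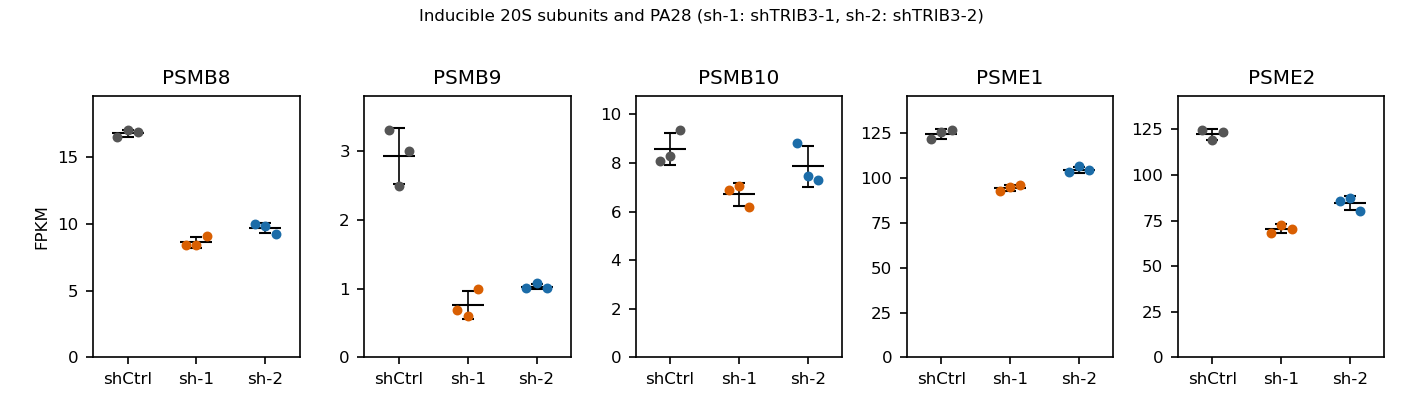
FPKM of PSMB8, PSMB9, PSMB10, PSME1 and PSME2 (vertical axes, from 0) in each of 9 libraries, with points for libraries, long ticks for group means and bars for SD over 3 libraries. In PSMB8, PSMB9, PSME1 and PSME2 every knockdown point lies below every shCtrl point, and in PSMB10 the highest shTRIB3-2 point, 8.83 FPKM, lies inside the shCtrl range.

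The constitutive catalytic subunits moved less than PSMB8 and PSMB9, and not together. PSMB5, the chymotrypsin-like subunit that proteasome inhibitors bind, read 209, 216 and 222 FPKM in shCtrl, 199.6, 204 and 207 in shTRIB3-1 and 185, 199 and 186 in shTRIB3-2, with a log2 fold change of -0.08 ± 0.04 (limma adjusted p = 0.0576) and -0.18 ± 0.04 (limma adjusted p = 0.000601). PSMB6, the caspase-like subunit, read 116, 116 and 116 FPKM, 106, 108 and 107 and 102, 108 and 105 in the same order of groups and fell by a small amount, -0.11 ± 0.03 and -0.14 ± 0.03 (limma adjusted p = 0.00354 and 0.000859). The value of PSMB5 in shTRIB3-1 passed without shCtrl replicate 1, at -0.11 (limma adjusted p = 0.0228), or without shTRIB3-2 replicate 2, through the shared spread (limma adjusted p = 0.0329). It also passed with the replicate block and with voom on recovered fragments (limma adjusted p = 0.0342 and 0.0303). With each library centred on its median neither fall of PSMB6 passed, at -0.03 and -0.09. PSMB7, the trypsin-like subunit, went the other way at 126, 134 and 128 FPKM in shCtrl, 151, 169 and 158 in shTRIB3-1 and 148, 163 and 156 in shTRIB3-2, a rise of 0.30 ± 0.05 and 0.27 ± 0.05 (limma adjusted p = 8.48e-05 and 0.000199). No PSMB7 library of a knockdown overlapped the controls.

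Set against its constitutive counterpart on the FPKM scale, each inducible subunit was a minor species in these cells before knockdown. PSMB8 stood at 7.91, 7.87 and 7.61% of PSMB5 in the shCtrl libraries, 4.21, 4.12 and 4.40% in shTRIB3-1 and 5.39, 4.96 and 4.98% in shTRIB3-2. PSMB9 stood at 2.53 ± 0.350% of PSMB6 (SD, n = 3), 0.711 ± 0.192% and 0.979 ± 0.0166%, and PSMB10 at 6.64 ± 0.588% of PSMB7, 4.22 ± 0.321% and 5.07 ± 0.792%. The 3 inducible genes summed came to 6.15 ± 0.157% of the 3 constitutive ones in shCtrl, 3.43 ± 0.0827% in shTRIB3-1 and 4.13 ± 0.370% in shTRIB3-2. All knockdown libraries lay below all controls in each of these 4 ratios. With 3 libraries against 3, a two-sided exact permutation test of such a ratio cannot go below p = 0.1, and none was run. For PSMB10 the ratio also carries the rise of PSMB7.

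**Figure D3:**
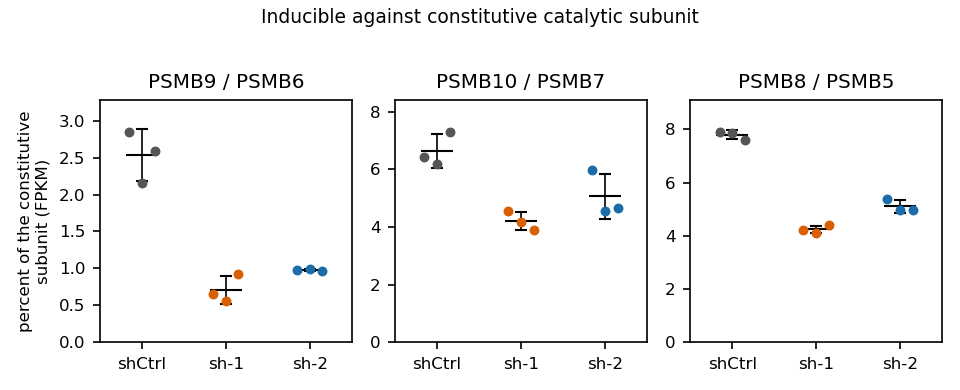
FPKM of each inducible catalytic subunit as a percent of its constitutive counterpart (vertical axes, from 0) in 9 libraries, with points for libraries, long ticks for means and bars for SD over 3 libraries. PSMB8 over PSMB5 averages 7.80% in shCtrl and 4.24% and 5.11% in the knockdowns.

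Among the structural genes of the beta ring, 1 of 7 rose and 4 fell in shTRIB3-1 and 1 rose and 5 fell in shTRIB3-2, PSMB7 being the riser. For this, the alpha and the ATPase ring the shares of all tested genes were 32.9% and 41.5% in shTRIB3-1 and 35.4% and 40.5% in shTRIB3-2, and no ring was tested against other genes. PSMB2, which has no catalytic site, was the beta gene with the deepest fall, from 61.4, 60.9 and 58.7 FPKM in shCtrl to 47.1, 49.3 and 46.1 in shTRIB3-1 and 43.1, 45.02 and 42.2 in shTRIB3-2. Its log2 fold change was -0.34 ± 0.04 (limma adjusted p = 2.82e-06) and -0.47 ± 0.04 (limma adjusted p = 1.35e-07), with no overlap of groups. The structural subunits PSMB3 and PSMB4 fell too, at -0.19 and -0.20 in shTRIB3-1 and at -0.40 and -0.32 in shTRIB3-2, whereas PSMB1 gave 0.04 and -0.06 and did not pass, except in shTRIB3-2 without its replicate 2, at -0.11 (limma adjusted p = 0.0134). Centring ended the call of PSMB3 in shTRIB3-1. FPKM summed over the 7 genes was 1054 ± 17.2 (SD, n = 3) in shCtrl, 1012 ± 15.2 in shTRIB3-1 and 943 ± 37.1 in shTRIB3-2.

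In the alpha ring 2 of 7 genes were higher and 4 lower in shTRIB3-1 and 1 higher and 5 lower in shTRIB3-2. PSMA7, the most abundant proteasome mRNA at 286 ± 7.37 FPKM (SD, n = 3) in shCtrl, rose by 0.28 ± 0.04 and 0.23 ± 0.04 on the log2 scale (limma adjusted p = 7.27e-05 and 0.000291). PSMA3 had the deepest mean fall of the ring at -0.25 ± 0.04 and -0.35 ± 0.04 (limma adjusted p = 0.000232 and 1.42e-05), followed by PSMA4 at -0.25 and -0.23, PSMA6 at -0.19 and -0.19, and PSMA2 at -0.14 and -0.17, all called in both hairpins. Centring on the library median ended the calls of PSMA2 in both hairpins and of PSMA6 in shTRIB3-1, and the PSMA2 call in shTRIB3-1 was also lost without shCtrl replicate 2 or 3 or shTRIB3-1 replicate 1 or 3, at adjusted p from 0.0541 to 0.0774. PSMA5 passed only with shTRIB3-2 (-0.02 and -0.11), not without its replicate 1 or 3 (limma adjusted p = 0.0808 and 0.0576). PSMA1 passed only with shTRIB3-1 (0.11 and -0.03), and a gene on its strand shares 26.7% of the exon bases of PSMA1. The testis alpha subunit PSMA8 had no row under this symbol and could not be analysed. The ring's summed FPKM stayed near the control, 682 ± 15.6 in shCtrl against 708 ± 31.2 and 684 ± 25.2.

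Levels within a ring were far from equal although each protein enters a ring once. In shCtrl the alpha ring ran from PSMA4 at 29.8 FPKM to PSMA7 at 286, a 9.60-fold range. In the beta ring PSMB2 was lowest at 60.3 and PSMB5 highest at 216 FPKM, a 3.57-fold range. The ATPases ran from PSMC1 at 16.3 to PSMC5 at 86.1 FPKM, the non-ATPases from PSMD12 at 20.4 to PSMD2 at 117, and the assembly chaperones, which act without staying in the particle, from PSMG4 at 1.14 to POMP at 61.96. Neighbours in the order often differed by less than their SD, as PSMA6 at 97.02 ± 3.35 and PSMA3 at 97.7 ± 4.24 FPKM, PSMC4 at 85.2 ± 4.10 and PSMC5 at 86.1 ± 1.01, or PSMB1 at 183 ± 6.39 and PSMB3 at 184 ± 4.70 (SD, n = 3). FPKM depends on the gene length used: exons shared with other genes and annotated transcripts that a cell does not use change a level, and whether they also change a fold change was not tested.

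**Figure D4:**
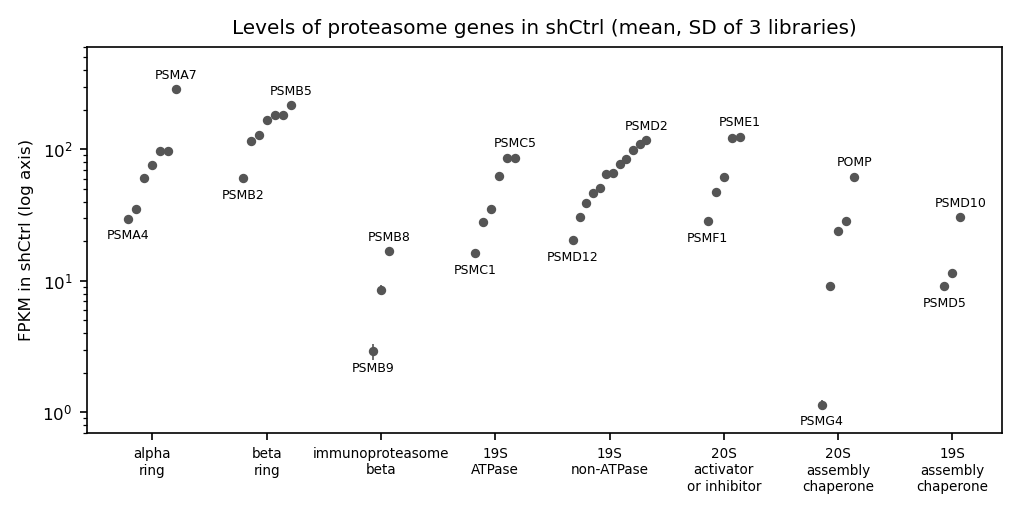
Mean FPKM in shCtrl (vertical log axis) of the proteasome genes by role, with SD bars over 3 libraries, often smaller than the point, and the lowest and highest gene of each role named. PSMB11, with 0 to 1 fragments in shCtrl, is not drawn, and the inducible subunits PSMB8, PSMB9 and PSMB10 lie below every gene of the constitutive rings.

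Of the 12 non-ATPase genes of the 19S cap 6 rose and 1 fell in shTRIB3-1, beside 32.9% and 41.5% of all tested genes, with a median of 0.10 on the log2 scale. In shTRIB3-2 5 rose and 3 fell, beside 35.4% and 40.5%, with a median of 0.02. A difference between cap and core was not tested. PSMD2, the scaffold on which shuttle factors dock, read 117, 117 and 117 FPKM in shCtrl, 163, 175 and 163 in shTRIB3-1 and 144, 151 and 150.3 in shTRIB3-2. It had the highest mean rise of the cap's subunits, 0.51 ± 0.03 (limma adjusted p = 3.87e-08) and 0.34 ± 0.03 (limma adjusted p = 1.40e-06). PSMD12, a lid subunit, read 19.8, 20.2 and 21.02 FPKM in shCtrl, 25.2, 26.1 and 24.7 in shTRIB3-1 and 24.7, 25.3 and 26.04 in shTRIB3-2, and rose by nearly the same amount with either hairpin, 0.31 ± 0.04 and 0.32 ± 0.04 (limma adjusted p = 7.82e-06 and 6.76e-06). For both genes all knockdown libraries lay above all controls.

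The lid subunits PSMD8 (0.30 and 0.23), PSMD13 (0.36 and 0.11) and PSMD14, the deubiquitinase that strips chains from substrates (0.14 and 0.18), also rose with both hairpins, and PSMD6 with shTRIB3-1 (0.18 and 0.06). The PSMD13 rise in shTRIB3-2 lost its call without shCtrl replicate 1 or 3 or shTRIB3-2 replicate 2 or 3, and that of PSMD14 in shTRIB3-1 without shCtrl replicate 1 or shTRIB3-1 replicate 2. PSMD3 fell in both (in shTRIB3-1 not when centred, -0.08, limma adjusted p = 0.163), at -0.16 and -0.31. The ubiquitin receptor ADRM1 read 68.01, 65.95 and 65.7 FPKM in shCtrl, 66.9, 69.3 and 65.9 in shTRIB3-1 and 58.8, 58.7 and 58.5 in shTRIB3-2, where only shTRIB3-2 stood apart (0.02 ± 0.03, limma adjusted p = 0.604, and -0.18 ± 0.03, limma adjusted p = 0.000122). PSMD4, also a ubiquitin receptor, gave 0.06 and -0.06, PSMD7 -0.06 and -0.03, and PSMD11 0.05 and -0.03, none passing. Among the alternatives PSMD4 in shTRIB3-2 passed without its replicate 2, at -0.09 (limma adjusted p = 0.0316), without shCtrl replicate 1, with quantile normalization and as TPM. PSMD1 gave 0.00 in shTRIB3-1 and -0.07 in shTRIB3-2 (limma adjusted p = 0.0463), a call lost on leaving out any 1 of 7 libraries.

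The ATPase ring, which unfolds substrates, held no gene that rose with both hairpins. In shTRIB3-1 2 of 6 rose and 2 fell, and in shTRIB3-2 0 rose and 3 fell by limma, with the same 0 and 3 at an unadjusted p of 0.05 and by voom on recovered fragments. PSMC6 fell in both, reading 28.1, 27.6 and 27.6 FPKM in shCtrl, 21.2, 22.4 and 21.99 in shTRIB3-1 and 21.02, 20.7 and 20.96 in shTRIB3-2, a change of -0.34 ± 0.03 (limma adjusted p = 1.07e-06) and -0.41 ± 0.03 (limma adjusted p = 1.97e-07). PSMC3 fell as well, at -0.07 (limma adjusted p = 0.0371) and -0.26 (limma adjusted p = 3.96e-06). Its call in shTRIB3-1 was lost without shCtrl replicate 2 or 3 or shTRIB3-1 replicate 1 or 3, and the value turned to 0.0075 with each library centred on its median. PSMC2 (-0.07 and -0.05) and PSMC5 (-0.07 and -0.06) did not pass, though PSMC5 did in shTRIB3-1 without its replicate 2, at -0.10 (limma adjusted p = 0.0248). Summed FPKM of the 6 ATPases was 313 ± 4.42 in shCtrl, 313 ± 12.4 in shTRIB3-1 and 279 ± 1.93 in shTRIB3-2, that of the 12 non-ATPases 807 ± 3.86, 899 ± 23.6 and 836 ± 15.7 (SD, n = 3).

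Assembly factors moved in both directions. PSMD9, a chaperone of the ATPase ring and the proteasome gene with the highest mean rise, read 11.02, 12.1 and 11.5 FPKM in shCtrl, 16.99, 17.9 and 17.2 in shTRIB3-1 and 16.3, 18.3 and 16.5 in shTRIB3-2. Its libraries did not overlap with control and the log2 fold change was 0.59 ± 0.05 (limma adjusted p = 5.35e-07) and 0.56 ± 0.05 (limma adjusted p = 7.91e-07). A gene on the same strand shares 14.9% of the exon bases of PSMD9. POMP, which guides beta subunits into the nascent core, read 62.7, 61.9 and 61.3 FPKM in shCtrl, 76.99, 83.9 and 81.2 in shTRIB3-1 and 75.6, 77.7 and 79.1 in shTRIB3-2, a rise of 0.38 ± 0.03 (limma adjusted p = 8.32e-07) and 0.32 ± 0.03 (limma adjusted p = 3.44e-06) without overlap.

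Of the chaperones of the alpha ring PSMG1 fell, at -0.29 and -0.34 and its partner PSMG2 at -0.24 and -0.44 (limma adjusted p at most 0.00271). PSMG3 gave -0.13 and -0.14 (limma adjusted p = 0.0414 and 0.0355), calls lost in both hairpins without shCtrl replicate 1 or 3, in shTRIB3-1 also without its replicate 2, and in shTRIB3-2 also without its replicate 2 or 3. PSMG4, at about 1 FPKM, gave -0.13 and -0.11 and did not pass. PSMD10, or gankyrin, a further chaperone of the ATPase ring, fell, at -0.26 and -0.23 (limma adjusted p = 0.00026 and 0.000765).

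The 2 hairpins were also compared with each other. In shTRIB3-2 relative to shTRIB3-1, 6 proteasome genes were higher and 16 lower, beside 25.1% and 20.7% of all tested genes, and 26 did not pass. The libraries of the 2 knockdowns did not overlap for 26 of 48 genes, beside 54.5% of all. No gene passed a log2 difference of 1, beside 2.08% of all. Of the 32 structural genes of core and cap 14 were lower in shTRIB3-2 and 0 higher by limma, with 17 lower and 0 higher at an unadjusted p of 0.05 and 16 and 0 by voom on recovered fragments. By contrast PSMB8, PSMB9, PSMB10, PSME1 and PSME2 were higher, together with the chaperone PSMD5, although by voom the first 3 of these did not pass, and with each library centred on its median neither PSMB9 nor PSMB10 did. Of the 10 HepG2 markers 8 were also higher in shTRIB3-2 than in shTRIB3-1 and 0 lower, and their part in these differences was not tested. The 2 remaining lower genes were PSME4 and PSMG2. The inducible genes thus stood higher in the hairpin that left less TRIB3, though PSMB10 had not passed as lower than shCtrl there. The differences were 0.42 ± 0.16 for PSMB9 (limma adjusted p = 0.0468), 0.17 ± 0.05 for PSMB8 (limma adjusted p = 0.0122) and 0.22 ± 0.08 for PSMB10 (limma adjusted p = 0.042). They were 0.15 ± 0.03 for PSME1 (limma adjusted p = 0.00133) and 0.26 ± 0.04 for PSME2 (limma adjusted p = 0.000188). The PSMB9 difference was lost on leaving out shCtrl replicate 3, shTRIB3-1 replicate 1 or 2, or any shTRIB3-2 library, with limma adjusted p from 0.0613 to 0.174. It was also lost with a pseudocount of 1, with only the 2 groups compared and without a filter (limma adjusted p = 0.0772, 0.0643 and 0.133). The PSMB10 difference was lost without shCtrl replicate 2, shTRIB3-1 replicate 1 or 3 or shTRIB3-2 replicate 1, with limma adjusted p from 0.0501 to 0.177. Quantile normalization, the replicate block and the lack of a filter ended it too (limma adjusted p = 0.0637, 0.0535 and 0.115).

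Among the structural genes the ATPases PSMC4 and PSMC1 differed most. PSMC4 read 89.9, 82.7 and 83.01 FPKM in shCtrl, 92.6, 101 and 90.9 in shTRIB3-1 and 73.3, 75.3 and 71.4 in shTRIB3-2, above control with one hairpin and below it with the other. Its log2 fold change was 0.16 ± 0.05 (limma adjusted p = 0.00827) and -0.22 ± 0.05 (limma adjusted p = 0.000932), and the difference -0.37 ± 0.05 (limma adjusted p = 4.56e-05). PSMC1 read 16.2, 16.9 and 15.97 FPKM in shCtrl, 19.4, 21.7 and 20.2 in shTRIB3-1 and 16.05, 15.7 and 17.05 in shTRIB3-2, so that shTRIB3-1 alone stood apart, at 0.32 ± 0.05 (limma adjusted p = 7.14e-05) against -0.01 ± 0.05 (limma adjusted p = 0.88). Its reads are less certain, since 76.1% of the exon bases of PSMC1 lie opposite exons of NRDE2. PSMD5, a chaperone of the ATPase ring, read 9.36, 9.57 and 8.30 FPKM in shCtrl, 7.62, 8.16 and 7.85 in shTRIB3-1 and 9.46, 9.15 and 10.1 in shTRIB3-2. It was lower in shTRIB3-1 at -0.20 ± 0.06 (limma adjusted p = 0.0101), a call lost when centred or quantile normalized, at -0.12 with either, gave 0.08 ± 0.06 in shTRIB3-2 (limma adjusted p = 0.259), and differed between hairpins by 0.28 ± 0.06 (limma adjusted p = 0.00278).

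**Figure D5:**
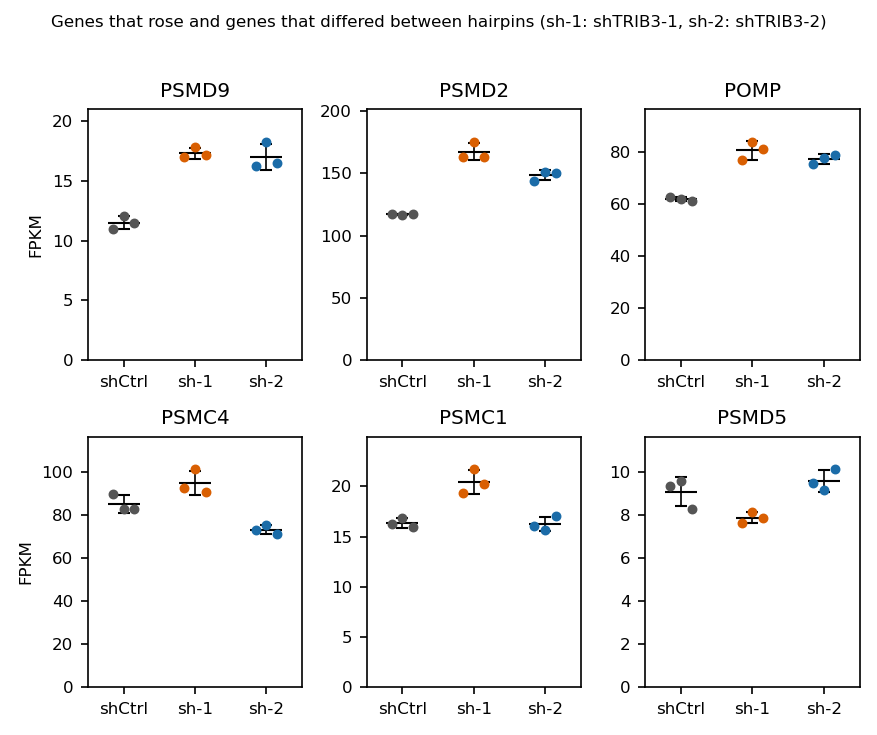
FPKM (vertical axes, from 0) of PSMD9, PSMD2, POMP, PSMC4, PSMC1 and PSMD5 in 9 libraries, with points for libraries, long ticks for group means and bars for SD over 3 libraries. PSMD9, PSMD2 and POMP are above shCtrl in all 6 knockdown libraries, PSMC4 lies above shCtrl in shTRIB3-1 and below it in shTRIB3-2, and in shTRIB3-1 all PSMC1 libraries lie above and all PSMD5 libraries below shCtrl.

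FPKM summed over all proteasome genes was 3444 ± 25.4 (SD, n = 3) in shCtrl, 3445 ± 90.4 in shTRIB3-1 and 3267 ± 85.2 in shTRIB3-2. As a share of all FPKM in a library this was 0.920 ± 0.0117%, 0.886 ± 0.0245% and 0.859 ± 0.0110%. The shTRIB3-1 total overlapped the control libraries, while each shTRIB3-2 total lay below every control. The 3 inducible catalytic genes contributed 28.3 ± 0.799, 16.1 ± 0.162 and 18.6 ± 1.14 FPKM to these totals.

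Other genes of the pathway were taken from 5 lists, whose counts stand beside 32.9% higher and 41.5% lower of all tested genes in shTRIB3-1 and 35.4% and 40.5% in shTRIB3-2, and describe the lists without setting them apart from other genes. Of 6 genes for ubiquitin and its activating enzymes, 5 rose and 1 fell in shTRIB3-1 and 4 rose and 2 fell in shTRIB3-2, with medians of 0.19 and 0.12. UBA6, a ubiquitin-activating enzyme, rose by 0.22 and 0.37. RPS27A, a fusion of ubiquitin with a ribosomal protein, fell, at -0.14 and -0.35.

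Of 16 factors that bind the proteasome or bring substrates to it, 7 rose and 8 fell in shTRIB3-1 and 4 rose and 7 fell in shTRIB3-2, with medians of -0.14 and -0.06. ZFAND2A, a stress-induced proteasome adaptor, rose from 18.4 to 47.8 and 41.5 FPKM (1.37 and 1.17), and the proteasome-bound ubiquitin ligase UBE3C by 0.39 and 0.44. The deubiquitinase UCHL5 fell, at -0.48 and -0.35, and SEM1, a small lid subunit whose symbol lies outside the rule, at -0.39 and -0.48.

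NRF1, encoded by NFE2L1, is the transcription factor that raises proteasome genes when proteasome activity is low, after release from the endoplasmic reticulum and cleavage by DDI2. Of 11 genes of this route 6 rose and 4 fell in shTRIB3-1 and 5 rose and 5 fell in shTRIB3-2, with medians of 0.15 and -0.01. NFE2L1 itself averaged 58.1, 64.4 and 57.6 FPKM (0.15, and -0.01, which did not pass). Of the genes of small MAF proteins, its binding partners, MAFF rose by 1.34 and 1.43, MAFK by 1.11 and 1.01 and MAFG, named after its values were seen, by 0.70 and 0.68. The protease gene DDI2 fell from 22.8 to 12.4 and 16.2 FPKM (-0.87 and -0.48), and SEL1L, an adaptor of the ligase that acts in endoplasmic reticulum degradation, fell, at -0.51 and -0.54.

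The list of the segregase p97 and its cofactors, which pull ubiquitin-tagged proteins out of complexes, held 12 genes, of which 3 rose and 6 fell in shTRIB3-1 and 1 rose and 5 fell in shTRIB3-2 (medians -0.09 and -0.03). The cofactors UBXN7 (-0.87 and -0.68) and ZFAND1 (-0.54 and -0.32) were lowest. UBXN1 (0.17 and 0.09) and UFD1 (0.27 and -0.05) were highest and passed in shTRIB3-1 only.

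Antigen processing and the interferon response, in which the immunoproteasome and PA28 take part, did not move as 1 group either. Of 16 genes 7 rose and 7 fell in shTRIB3-1 and 7 rose and 8 fell in shTRIB3-2, with medians of 0.01 and -0.10. NLRC5, the transactivator of MHC class I genes, fell from 2.29 to 1.12 and 0.974 FPKM (-0.97 and -1.15), and the peptide-trimming enzyme ERAP2 at -0.91 and -0.94. The kinase JAK1 rose by 0.58 and 0.56. Chosen after its values were seen, IRF1, a transcription factor of the interferon response, fell, at -0.87 and -0.71.

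TAP1, likewise chosen after its values were seen, encodes a subunit of the transporter that feeds proteasome peptides to MHC class I and is transcribed away from PSMB9 on the opposite strand. The RefSeq table places its nearer start site 488 bases from that of PSMB9. The PSMB9 windows above reach at most 250 bases before its start, so motifs in the rest of this stretch are not described. TAP1 read 19.3, 18.9 and 19.9 FPKM in shCtrl, 22.3, 23.7 and 23.01 in shTRIB3-1 and 28.7, 29.5 and 28.6 in shTRIB3-2. It rose by 0.25 ± 0.04 (limma adjusted p = 4.30e-05) and 0.58 ± 0.04 (limma adjusted p = 1.80e-08), so the 2 genes of this head-to-head pair went in opposite directions with both hairpins.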

How the data were processed

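RNA of 9 HepG2 libraries was sequenced. Per the labels and the study's methods the reads were aligned to GRCh38, with HTSeq and R 3.2.0 named in the submitters' processing notes. The authors deposited FPKM values, 1 row per gene symbol and 1 column per library, and no column was left unmapped. The kit is named differently in labels and methods, and strand use in counting is not given in the sources used here. From the deposited FPKM, whole fragment numbers were recovered for 24202 of 24204 genes by solving gene length and library total, used for depth, fragment numbers and 1 alternative. A gene counted as recovered only where all its values above 0 came within 0.005 of a whole number. With the values of 1 library shuffled between genes, 176 of 1000 genes checked still met this, so meeting it does not prove a number right.

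Groups came from sample titles. FPKM + 0.1 was taken to log2, genes with at least 1 FPKM in 3 libraries were kept (11265), and limma 3.58.1 in R 4.3.3 (empirical Bayes with trend, 3 group means over 9 libraries, two-sided, Benjamini-Hochberg) compared the groups. The fit was tested on simulated data. Replicates of a group differed by more than sampling noise (chi-square per degree of freedom 3.13 to 7.54). Overlaps and positions used GENCODE release 44 and promoters the RefSeq table, which held 43 of the 49 genes.

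The members, role and pathway lists were chosen with earlier results of these data known. Values in every library are given for the catalytic subunits and their inducible counterparts, POMP, ADRM1, the 5 tested genes with the highest and the 5 with the lowest mean log2 fold change over both hairpins, and the 4 that differed most between hairpins. In pathway lists the 2 highest and 2 lowest by mean are named, except some that are not reported here. Alternatives covered pseudocount, filter, scaling, model, samples, replicate block and each library left out. Errors are standard errors or SD between libraries.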

Additional observations from a re-analysis of the deposited data

Results flagged for a closer look

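PSMC4, an ATPase subunit of the 19S cap, was singled out because its change differed between the 2 TRIB3 hairpins and had opposite signs in them. It rose with shTRIB3-1 and fell with shTRIB3-2, and the direct limma comparison of shTRIB3-2 with shTRIB3-1 gave a log2 difference of -0.37 (adjusted p = 4.56e-05). The 3 libraries of each group did not overlap with those of either other group. Over the 18 alternatives the difference ranged from -0.40 to -0.32 and both calls against shCtrl held. The 2 hairpins share their controls and differ in sequence and in the TRIB3 level they left, which cannot be told apart here. Groups of 3 libraries were not searched for single outlying libraries.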

How the results depend on the processing

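Of 2586 recomputed values of single proteasome genes, 2447 stayed on their side of the threshold, 101 lost a call, 36 gained one and 2 changed sign with a call in 1 of the fits. Of the 2447, 62 values of 28 results, called in neither fit, had another sign than the reported value. In 97 of 144 results no alternative changed the call. The falls of PSMB8, PSMB9, PSME1 and PSME2 and the rise of PSMD9 against shCtrl kept their calls at an adjusted p of 0.05 under all alternatives that tested them, with PSMB9 between -2.02 and -1.16 in shTRIB3-1 and between -1.52 and -0.95 in shTRIB3-2. Centring each library on its median left 13 genes lower in shTRIB3-1 (21 otherwise) and 19 in shTRIB3-2 (25 otherwise). It turned PSMC3 in shTRIB3-1 to 0.0075 (adjusted p = 0.863). Quantile normalization turned PSMA7 between hairpins to 0.168 (adjusted p = 0.00275). The number past a log2 fold change of 1 was 0 in both hairpins with a filter of 5 FPKM, under which PSMB9 was not tested, 0 in shTRIB3-2 with a pseudocount of 1, and 2, PSMB8 being the other, in shTRIB3-1 after rescaling to TPM, which moved the median of all genes there to -0.11. Voom on recovered fragments called 3 genes higher in shTRIB3-2 than in shTRIB3-1 (6 otherwise). The cause of these shifts was not tested, beyond the fewer genes of the stricter filter. Leaving out 1 library gave 13 to 14 higher and 18 to 22 lower in shTRIB3-1, 9 to 10 and 22 to 25 in shTRIB3-2, and 4 to 6 and 13 to 18 between hairpins. Same-numbered libraries did not deviate together (Pearson r from -0.074 to 0.093 across genes), and the fit with the replicate block gave 14 higher and 22 lower, 10 and 25, and 5 and 17. PSMB9, at 21 to 120 fragments, had the fewest fragments of the tested proteasome genes.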
